A study of Chlorocebus sabaeus with 3 samples.

Results

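Interferon-stimulated genes are the transcripts that cells switch on when type I interferon reaches them, and 36 of them were followed here among the 33994 genes measured in cell-free RNA of amniotic fluid. A row belonged to the group when its gene name in the deposited files was one of the 36 symbols. All 36 were found, the RNA sensor RIG-I under its older symbol DDX58. The fluid came from vervet monkeys (Chlorocebus sabaeus), an Old World primate, and was the supernatant left once cells had been removed. There was 1 library for a stillborn pregnancy (sex label M), 1 for a spontaneous abortion (sex label NA) and 1 for a pregnancy labelled alive (sex label F). All 3 libraries were made by single-primer isothermal amplification of 100 ng of RNA. They are called stillborn, abortion and alive fluid below, and each stands for 1 pregnancy. The sources used here do not state gestational age, infection or treatment.

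Type I interferon binds a receptor made of the chains IFNAR1 and IFNAR2. The kinases JAK1 and TYK2 then phosphorylate STAT proteins such as STAT2, which acts with IRF9 in the complex ISGF3 that binds interferon-stimulated response elements. The genes switched on include sensors of viral RNA, enzymes that block translation or copying of viral genomes, the ubiquitin-like modifier ISG15 with its ligases, and the factors STAT2, IRF7 and IRF9, which feed back on the same pathway. Many of these genes also have a resting level in epithelia and leukocytes without infection.

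The libraries held 17749954 assigned reads for stillborn fluid, 29926352 for abortion fluid and 20220899 for alive fluid. These totals and the reads per gene were solved from the RPKM values (reads set against gene length and sequencing depth). No status had a second sample, so libraries are compared and not conditions, no test was made between statuses, and each 95% interval covers counting error only. A gene is called higher or lower when its ratio, after scaling by trimmed mean of M-values (TMM), was at least 2-fold, the exact Clopper-Pearson interval excluded 1, and the higher library had at least 30 reads. The comparisons of each loss with the alive pregnancy share the alive library. Epithelial RNA was present in every library: the 7 simple epithelial markers summed to RPKM 441 in stillborn fluid, 583 in abortion fluid and 722 in alive fluid. Most of each sum was KRT19, at 316 RPKM in stillborn fluid, 434 in abortion fluid and 554 in alive fluid. KRT8 and KRT18 had the same order. EPCAM, CDH1, CLDN4 and ELF3 ran the other way between stillborn and alive fluid, EPCAM at 12.5 RPKM against 5.97. In a fluid without cells, fewer cells of a type and less RNA per cell cannot be told apart.

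Interferon-stimulated RNA was a small part of each fluid. The 36 genes summed to RPKM 277 in stillborn fluid, 226 in abortion fluid and 319 in alive fluid. As shares of all RPKM these were 0.0636% in stillborn fluid, 0.0594% in abortion fluid and 0.0800% in alive fluid. IFI6, a mitochondrial and endoplasmic reticulum protein that limits cell death, held 31.2% of the sum in stillborn fluid, 19.8% in abortion fluid and 26.7% in alive fluid. Without IFI6 the sums were RPKM 190 in stillborn fluid, 181 in abortion fluid and 234 in alive fluid. The alive library had the largest sum with or without IFI6.

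A mean RPKM of at least 1 over the 3 libraries was reached by 23 of the 36 genes. Of these 23, 7 had their highest TMM-scaled value in stillborn fluid, 2 in abortion fluid and 14 in alive fluid. Among all 10229 genes past the same filter, 37.3% were highest in stillborn fluid, 24.7% in abortion fluid and 38.0% in alive fluid. The lowest value lay in stillborn fluid for 9 of the 23 members, in abortion fluid for 11 and in alive fluid for 3. Alive fluid was thus the lowest for 13.0% of these members, beside 36.7% of all genes. OASL, an oligoadenylate synthetase-like protein, was listed at 0 in every library. The other 12 genes below the filter were BST2, MX2, DDX60, IRF7, HERC5, HERC6, USP18, TRIM22, RSAD2, SAMD9, IFI44 and EPSTI1. By TMM-scaled value, most of these were lowest in alive fluid: BST2, DDX60, IRF7, USP18, TRIM22, RSAD2, SAMD9 and EPSTI1. For TRIM22, RSAD2, SAMD9 and EPSTI1 the counting interval of each loss over alive fluid lay above 1. For BST2 and DDX60 the interval of stillborn over alive fluid held 1. IRF7 and USP18 were below the read limit in every library, and their intervals held 1. MX2, HERC6 and IFI44 were lowest in abortion fluid and HERC5 in stillborn fluid, but every interval of HERC6 held 1. The low share of members lowest in alive fluid was set beside all genes past the filter only. Whether it holds below the filter was not tested.

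**Figure D1:**
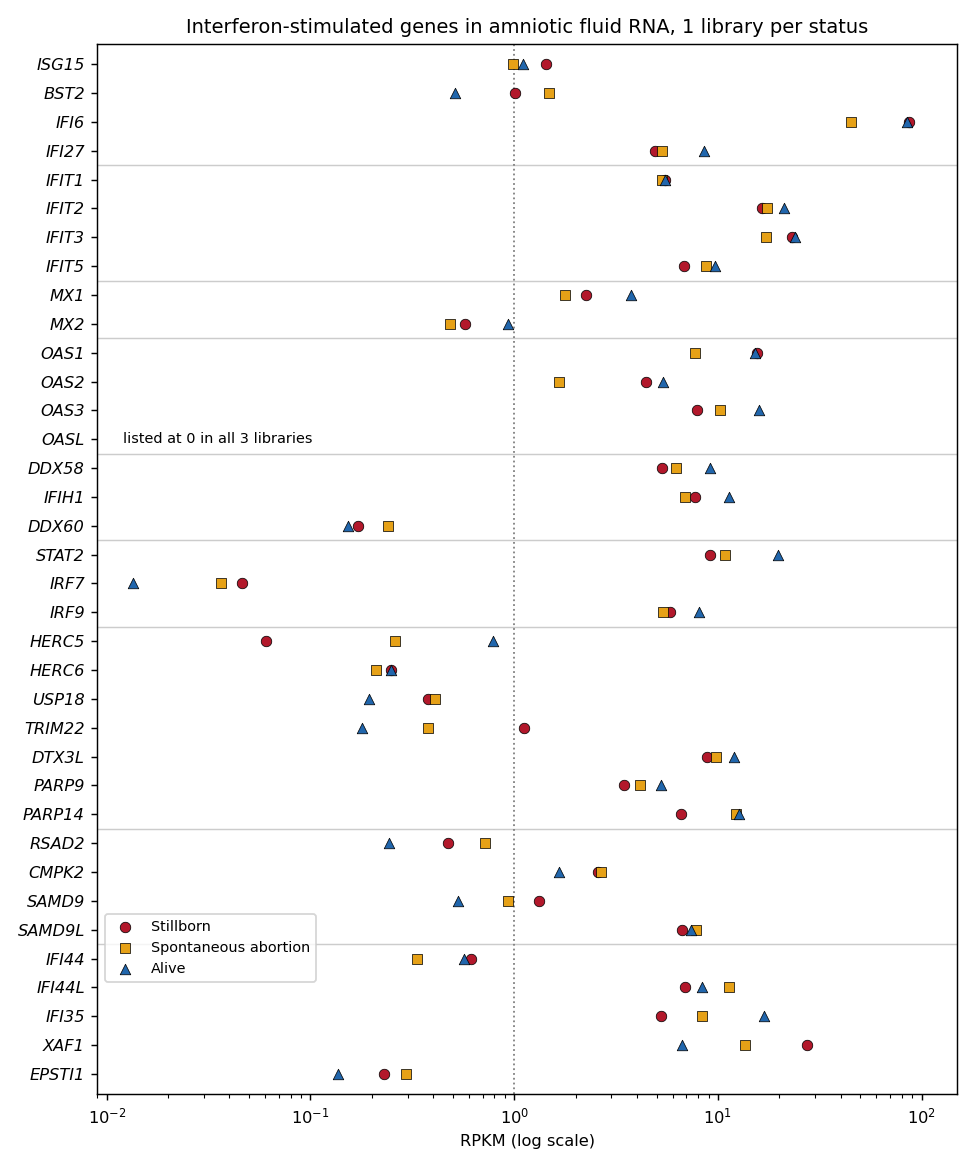
RPKM on a log axis of the 36 interferon-stimulated genes, grouped by role, with 1 point per library (stillborn, spontaneous abortion, alive). The dotted line marks RPKM 1; IFI6 stands highest at 86.5 in stillborn fluid, 44.9 in abortion fluid and 85.1 in alive fluid, and OASL is listed at 0.

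Levels can be set between genes only through the length that the RPKM values were divided by, and that length grows with the number of annotated transcripts. Median recovered length was 2681 bases for genes with 1 RefSeq transcript, 5074 for 2 and 12125 for 5. For IRF7, the master factor of interferon production, it was 10991 bases, against a gene span of 3359 bases in RefSeq. For IRF9 it was 5715 bases, against a span of 5023. MX1 and MX2 were divided by 16129 and 16523 bases. RPKM of such genes is therefore low for their reads, and the order of levels between genes holds on the authors' lengths only. Ratios between libraries do not depend on the length.

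The transcription factors come first in the pathway. STAT2, the type I interferon signal transducer, had 9.16 RPKM in stillborn fluid and 10.9 in abortion fluid, against 19.6 in alive fluid. It was 1.92-fold lower in stillborn fluid (1.76 to 2.09) and 1.76-fold lower in abortion fluid (1.64 to 1.89), short of the 2-fold limit in each. IRF9, the DNA-binding partner of STAT2, had 5.82 RPKM in stillborn fluid and 5.39 in abortion fluid, against 8.12 in alive fluid. STAT2 and IRF9 thus had their highest values in the same library. IRF7 was close to absent, with 9 reads in stillborn fluid, 12 in abortion fluid and 3 in alive fluid, too few for a comparison.

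Of the cytosolic RNA sensors, DDX58 (RIG-I) and IFIH1 (MDA5) followed the same order as STAT2 in that the alive library was highest. DDX58 had 5.29 RPKM in stillborn fluid and 6.26 in abortion fluid, against 9.13 in alive fluid. IFIH1 had 7.68 RPKM in stillborn fluid and 6.93 in abortion fluid, against 11.3 in alive fluid. Each ratio to alive fluid was between 1.32-fold and 1.59-fold lower, and each interval excluded 1. DDX60, a helicase linked to RIG-I signalling, was low, at 0.171 RPKM in stillborn fluid, 0.240 in abortion fluid and 0.153 in alive fluid.

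The oligoadenylate synthetases make the messenger that activates the RNA-cutting enzyme RNase L. OAS1 had 15.6 RPKM in stillborn fluid, 7.69 in abortion fluid and 15.3 in alive fluid. OAS2 had 4.42 RPKM in stillborn fluid, 1.66 in abortion fluid and 5.41 in alive fluid. For these 2 genes abortion fluid alone was low. OAS3, in contrast, had 7.91 RPKM in stillborn fluid and 10.2 in abortion fluid, against 15.9 in alive fluid, so that here stillborn fluid was lowest. OAS1, OAS3 and OAS2 follow each other on the chromosome in the RefSeq annotation of the assembly mChlSab1.0.hap1. In stillborn over abortion fluid, OAS1 was 2.21-fold higher (1.93 to 2.52) and OAS2 2.89-fold higher (2.40 to 3.47), while OAS3 was 1.19-fold lower (1.06 to 1.34).

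The IFIT proteins bind viral RNA that lacks the host's cap marks, and they were among the steadier members. IFIT1 had 5.47 RPKM in stillborn fluid, 5.32 in abortion fluid and 5.52 in alive fluid, and all 3 of its intervals held 1. IFIT2 had 16.5 RPKM in stillborn fluid, 17.4 in abortion fluid and 21.1 in alive fluid. IFIT3, which stabilises IFIT1, had 23.2 RPKM in stillborn fluid, 17.2 in abortion fluid and 23.8 in alive fluid. None of the 4 genes of this family met the 2-fold rule in any comparison. The 4th, IFIT5, had 6.80 RPKM in stillborn fluid, 8.71 in abortion fluid and 9.63 in alive fluid. The family lies together on the chromosome in the same annotation.

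MX1 and MX2 are dynamin-like GTPases that trap incoming viral particles, and they are neighbours. MX1 had 2.25 RPKM in stillborn fluid, 1.78 in abortion fluid and 3.76 in alive fluid. MX2 had 0.576 RPKM in stillborn fluid, 0.483 in abortion fluid and 0.934 in alive fluid. The order of the libraries was the same for this pair. In abortion over alive fluid, MX1 was 2.06-fold lower (1.88 to 2.25) and MX2 1.88-fold lower (1.58 to 2.23), so that the pair fell on either side of the limit with intervals that overlap.

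The ISG15 system attaches a ubiquitin-like protein to newly made proteins. ISG15 itself had 1.43 RPKM in stillborn fluid, 0.986 in abortion fluid and 1.11 in alive fluid, and with 25 reads in stillborn, 29 in abortion and 22 in alive fluid it was below the read limit. Its ligase HERC5 had 4 reads in stillborn fluid, 29 in abortion fluid and 59 in alive fluid. These are 0.0608 RPKM in stillborn fluid, 0.261 in abortion fluid and 0.787 in alive fluid. HERC5 was 11.6-fold lower in stillborn fluid than in alive fluid (4.29 to 43.9) and 2.93-fold lower in abortion fluid (1.85 to 4.74). Its neighbour HERC6, the ligase that does this work in mice, had 0.248 RPKM in stillborn fluid, 0.211 in abortion fluid and 0.248 in alive fluid, with all 3 intervals holding 1. USP18, which removes ISG15 and damps receptor signalling, had 12 reads in stillborn fluid, 22 in abortion fluid and 7 in alive fluid.

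PARP9 and DTX3L form an ADP-ribosylating ubiquitin ligase complex, and PARP14 is a related enzyme encoded beside them. DTX3L had 8.87 RPKM in stillborn fluid, 9.76 in abortion fluid and 11.9 in alive fluid. PARP9 had 3.46 RPKM in stillborn fluid, 4.16 in abortion fluid and 5.28 in alive fluid. These partners thus kept one order of libraries. PARP14 had 6.62 RPKM in stillborn fluid, 12.2 in abortion fluid and 12.8 in alive fluid. It was 1.73-fold lower in stillborn fluid than in alive fluid (1.60 to 1.86), while its interval for abortion fluid over the alive library held 1.

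Other members ran in the opposite direction, with their lowest level in alive fluid. XAF1, a partner of the inhibitor of apoptosis XIAP that favours cell death, had 27.4 RPKM in stillborn fluid and 13.6 in abortion fluid, against 6.63 in alive fluid. These rest on 2896 reads in stillborn fluid, 2425 in abortion fluid and 798 in alive fluid. XAF1 was 4.62-fold higher in stillborn fluid (4.27 to 5.0) and 2.11-fold higher in abortion fluid (1.95 to 2.29) than in alive fluid, and 2.19-fold higher in stillborn fluid than in abortion fluid (2.07 to 2.31). It made up 9.90% of the summed RPKM of the 36 genes in stillborn fluid, 6.02% in abortion fluid and 2.08% in alive fluid. TRIM22, an antiviral ubiquitin ligase, followed the same order with 99 reads in stillborn fluid, 56 in abortion fluid and 18 in alive fluid. TRIM22 was 7.0-fold higher in stillborn fluid (4.21 to 12.3) and 2.16-fold higher in abortion fluid (1.25 to 3.91) than in alive fluid.

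RSAD2 (viperin) turns CTP into a chain terminator of viral RNA, and CMPK2, the kinase encoded beside it, supplies the substrate. RSAD2 had 0.471 RPKM in stillborn fluid and 0.718 in abortion fluid, against 0.244 in alive fluid. CMPK2 had 2.59 RPKM in stillborn fluid and 2.68 in abortion fluid, against 1.66 in alive fluid. The alive library was lowest for both genes of this pair. SAMD9, which restricts poxviruses, had 1.32 RPKM in stillborn fluid and 0.930 in abortion fluid, against 0.532 in alive fluid. Its neighbour and paralog SAMD9L was near level, at 6.64 RPKM in stillborn fluid, 7.80 in abortion fluid and 7.41 in alive fluid. EPSTI1, a gene first described in the contact of epithelium and stroma, had 118 reads in stillborn fluid, 255 in abortion fluid and 80 in alive fluid. Reads shared between paralogs such as SAMD9 and SAMD9L cannot be told apart in these values.

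The remaining members did not share one order. IFI35, a partner of NMI in cytosolic complexes, had 5.23 RPKM in stillborn fluid and 8.35 in abortion fluid, against 16.8 in alive fluid. IFI44L, a feedback inhibitor of the response, had 6.87 RPKM in stillborn fluid, 11.3 in abortion fluid and 8.32 in alive fluid. The neighbour IFI44 had 34 reads in stillborn fluid, 31 in abortion fluid and 36 in alive fluid. IFI27, a mitochondrial protein of the same small family as IFI6, had 4.91 RPKM in stillborn fluid and 5.31 in abortion fluid, against 8.55 in alive fluid. BST2 (tetherin), which holds budding virus on the cell surface, had 19 reads in stillborn fluid, 47 in abortion fluid and 11 in alive fluid.

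The comparison of the stillborn with the alive pregnancy found members on either side. Of 31 members with at least 30 reads in the higher library, 4 were higher, XAF1, TRIM22, SAMD9 and RSAD2, beside 13.1% of all 13452 genes with as many reads. SAMD9 was 2.77-fold higher (2.11 to 3.66) and RSAD2 2.16-fold higher (1.38 to 3.43). On the low side were 2 members, HERC5 and IFI35, beside 12.5% of all genes. IFI35 was 2.87-fold lower (2.32 to 3.56). The share of members called, 12.9% higher and 6.45% lower, is near the background on the high side and below it on the low side.

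The median log2 ratio of the 23 members past the RPKM filter, on the scale log2(RPKM + 0.1), was -0.27 in stillborn over alive, beside -0.01 for all genes past the filter. It is negative for 15 of the 23, and 50.8% of all genes were negative. With libraries scaled by assigned totals alone, all genes shifted by 0.16 in this comparison, and STAT2 and OAS3 also counted as lower, which made 4 members lower and 3 higher. Over all 36 members with no filter the median was 0.0013. The 36 took in OASL at 0 reads, and ISG15, BST2, IRF7 and USP18, which were below the read limit. Among the 31 members with enough reads, 15 intervals lay below 1, 9 above it and 7 held it. Of all genes with as many reads, 38.7% had intervals below 1 and 37.1% above. The negative median thus came with a filter that left out members with low RPKM, a measure that also depends on the length. MX2 (169 reads in stillborn and 312 in alive fluid) and EPSTI1 (118 and 80) were left out. ISG15, with 25 and 22 reads, was kept.

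**Figure D2:**
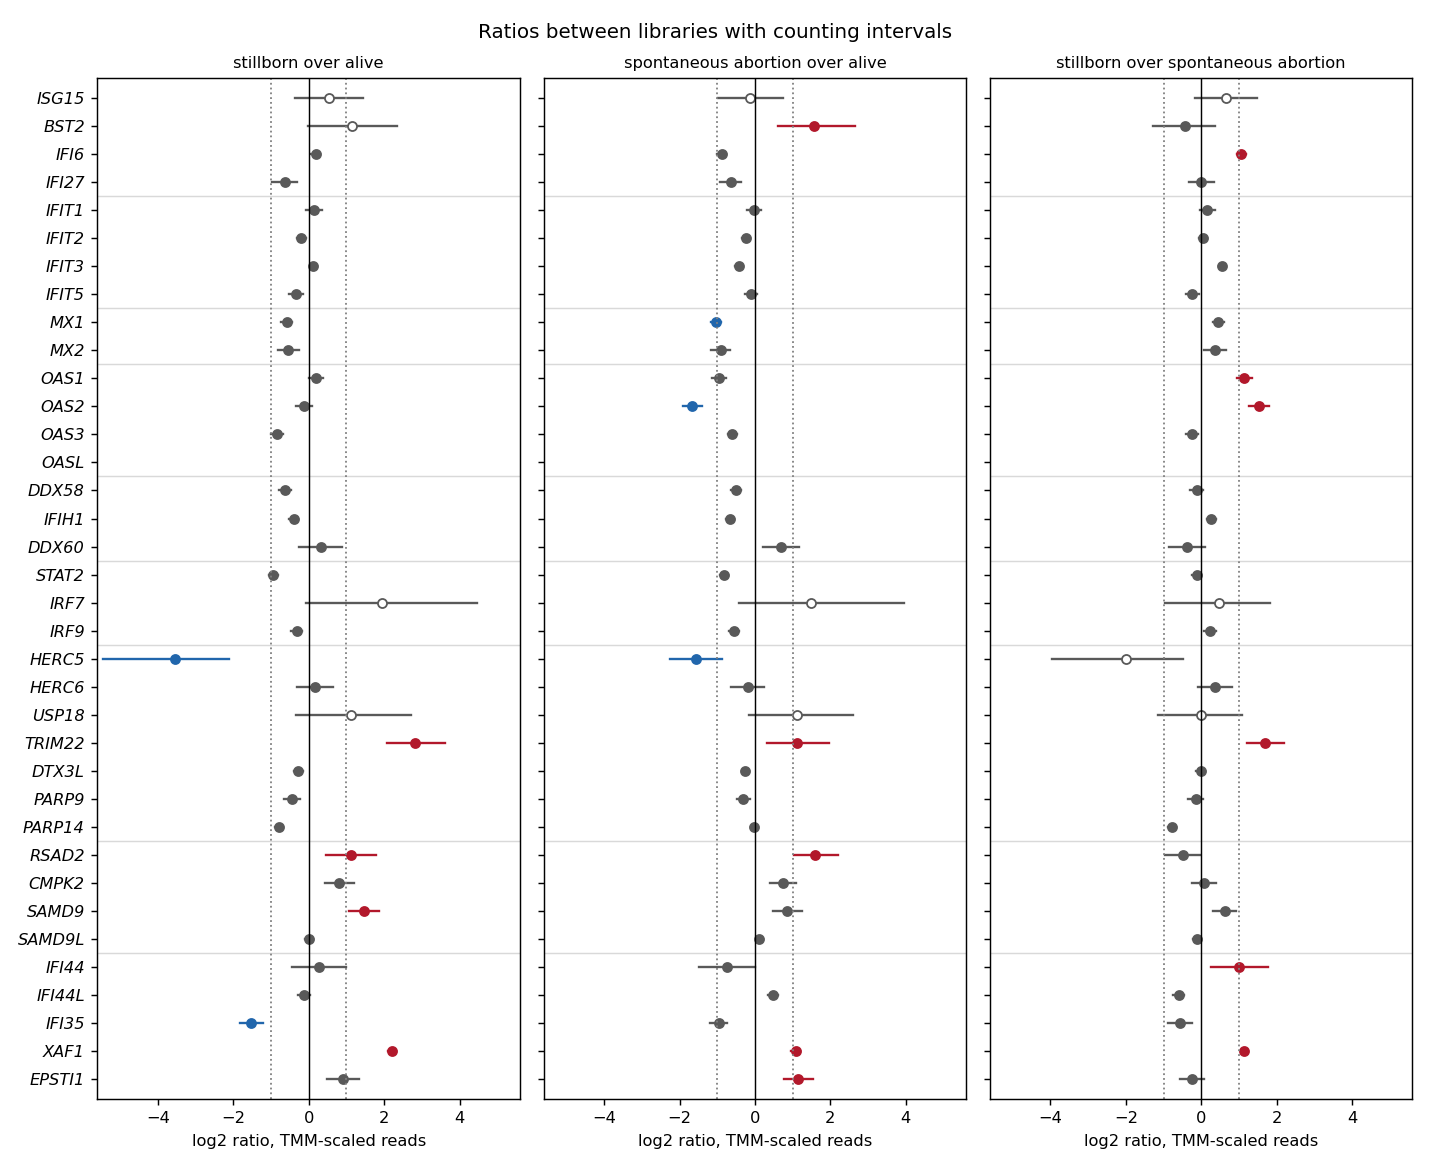
Log2 ratio of TMM-scaled reads for each interferon-stimulated gene in 3 comparisons, with exact 95% counting intervals as bars; dotted lines mark 2-fold, red points are called higher, blue points lower, and open points have fewer than 30 reads in the higher library. XAF1 and TRIM22 are red in all 3 panels, and HERC5 is blue in both comparisons with the alive library.

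The comparison of the spontaneous abortion with the alive pregnancy had most of the abundant members on the low side, by less than 2-fold for most of them. Of 32 members with enough reads, 3 were lower, OAS2, HERC5 and MX1, beside 5.69% of all 13806 genes with as many reads. OAS2 was 3.16-fold lower (2.66 to 3.76). On the high side were 5 members, BST2, RSAD2, EPSTI1, TRIM22 and XAF1, beside 7.68% of all genes. BST2 was 2.97-fold higher (1.52 to 6.34), RSAD2 3.03-fold (2.06 to 4.57) and EPSTI1 2.21-fold (1.72 to 2.88). As shares, 15.6% of the members with enough reads were higher and 9.38% lower.

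At a limit of 1.5-fold, 12 members were lower in abortion than in alive fluid, beside 13.1% of all genes, and 8 were higher, beside 15.4%. The 9 added on the low side were IFI6, IFI27, MX2, OAS1, OAS3, IFIH1, STAT2, IFI44 and IFI35. IFI6 was 1.84-fold lower (1.71 to 2.00), and IFI35 1.95-fold lower (1.68 to 2.27). The median log2 ratio of the 23 members past the filter was -0.43, beside -0.01 for all genes, and 19 of the 23 were negative, beside 50.4% of all genes. Over all 36 members the median was -0.19. Of the 5 members called higher, all but XAF1 had a mean RPKM below 1 and did not enter the median over 23.

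Between the losses, 6 of 31 members with enough reads were higher in stillborn fluid than in abortion fluid, beside 7.53% of all 13811 genes with as many reads. They were OAS2, OAS1, TRIM22, XAF1, IFI6 and IFI44. IFI6 was 2.10-fold higher (1.93 to 2.27), TRIM22 3.24-fold (2.31 to 4.58) and IFI44 2.01-fold (1.2 to 3.38). None was lower, beside 7.49% of all genes, and HERC5, at 4 reads in stillborn fluid against 29 in abortion fluid, was 1 read short of being compared. With a limit of 10 reads HERC5 was lower. The median log2 ratio of the 23 was 0.05, beside -0.02 for all genes, with 13 positive and 10 negative. With assigned totals alone, IFI6 and IFI44 fell under the 2-fold limit and 4 members were higher.

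A limit of 4-fold left few members. In stillborn over alive fluid XAF1 and TRIM22 were still 2 members higher, beside 4.69% of all genes, and HERC5 was 1 member lower, beside 3.23%. No member passed 4-fold in abortion over alive fluid, where 2.3% of all genes were higher and 1.5% lower, or in stillborn over abortion fluid, where the shares were 2.82% and 1.65%. At 1.5-fold, 6 members were higher and 7 lower in stillborn over alive fluid, beside 22.8% and 23.5% of all genes. Between the losses, 7 were higher and 2 lower in stillborn fluid at 1.5-fold, beside 15.5% and 17.1% of all genes.

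**Figure D3:**
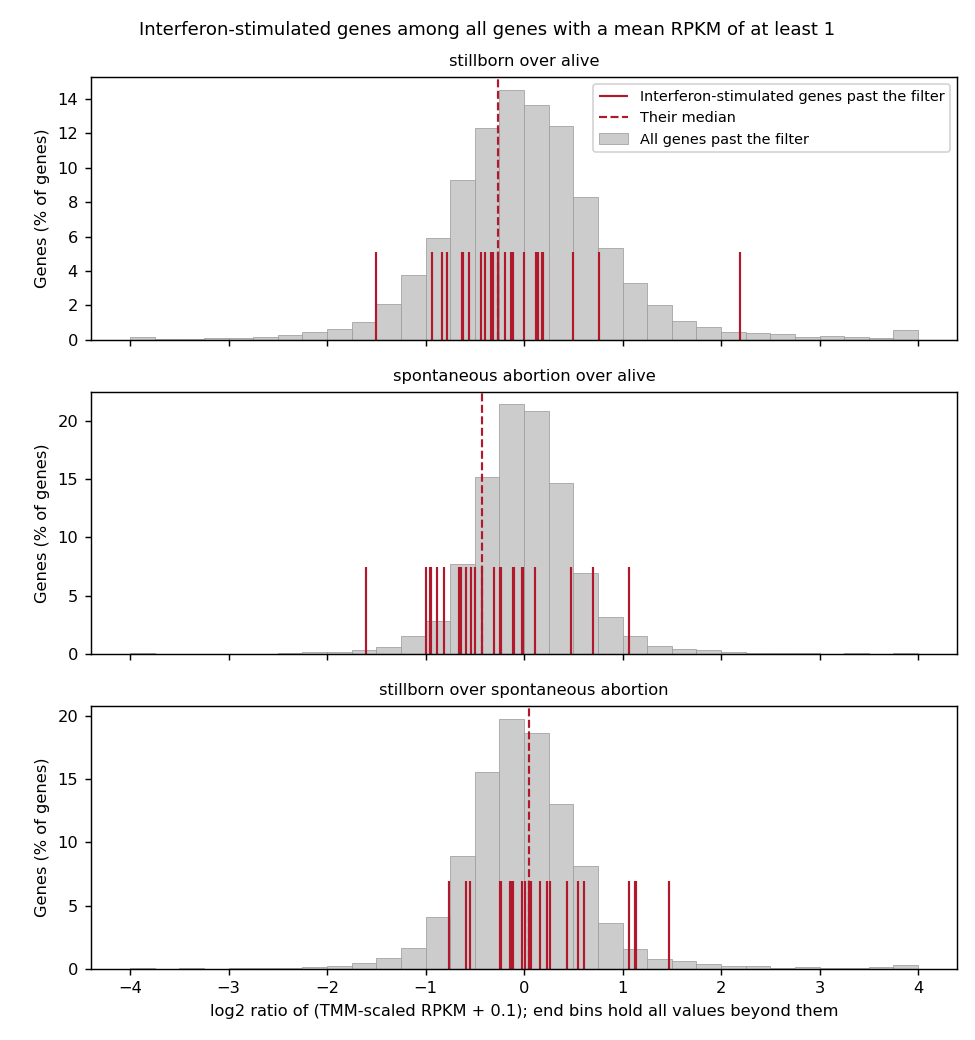
Share of the 10229 genes whose mean RPKM reached 1, by log2 ratio (grey bars, bins of 0.25), with the 23 interferon-stimulated genes past the same filter as red lines and their median dashed. The median lies at -0.27 for stillborn over alive, -0.43 for spontaneous abortion over alive and 0.05 for stillborn over spontaneous abortion, and XAF1 is the line farthest right in the upper panels.

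Upstream of these genes, the interferon genes found by symbol left almost no RNA. Of 10 ligand genes listed, 7 were in the files, and IFNA2, IFNB1, IFNK, IFNG and IFNL1 were listed at 0 in every library. IFNA2 was the only alpha interferon among the 7, so other alpha interferons are not covered. IFNE, the interferon of reproductive epithelium, had 4 reads in stillborn fluid, 19 in abortion fluid and 3 in alive fluid. IFNW1 had 2 reads in stillborn fluid, 6 in abortion fluid and 0 in alive fluid, where 3 reads would be the limit that a count of 0 allows.

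Of 6 receptor chains, 5 were higher in stillborn than in alive fluid, beside 13.1% of all genes. IFNAR1, the first chain of the type I receptor, had 9.22 RPKM in stillborn fluid and 7.80 in abortion fluid, against 3.33 in alive fluid. It was 3.09-fold higher in stillborn fluid and 2.40-fold higher in abortion fluid than in alive fluid. IFNLR1, the type III receptor chain of epithelia, was 4.31-fold higher in stillborn fluid than in alive fluid. IFNGR2, IL10RB and IFNGR1 were 2.25-fold, 2.13-fold and 2.09-fold higher in the same comparison. IFNAR2, the second chain of the type I receptor, was level, at 1.04 RPKM in stillborn fluid, 0.975 in abortion fluid and 1.01 in alive fluid. With assigned totals alone, 3 of the 6 were higher, IFNAR1, IFNGR2 and IFNLR1.

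The signalling genes did not meet the 2-fold rule, with 0 of 6 called in any comparison. JAK1 came closest, at 26.7 RPKM in stillborn fluid and 37.5 in abortion fluid, against 57.4 in alive fluid. With assigned totals alone, or with totals without H19 and IGF2, JAK1 counted as lower in stillborn over alive fluid. TYK2 had 5.66 RPKM in stillborn fluid and 6.19 in abortion fluid, against 8.07 in alive fluid. JAK1 and TYK2 had their highest level in alive fluid, as had STAT3 and IRF1. The kinase JAK2 and the factor IRF2 were lowest there.

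**Figure D4:**
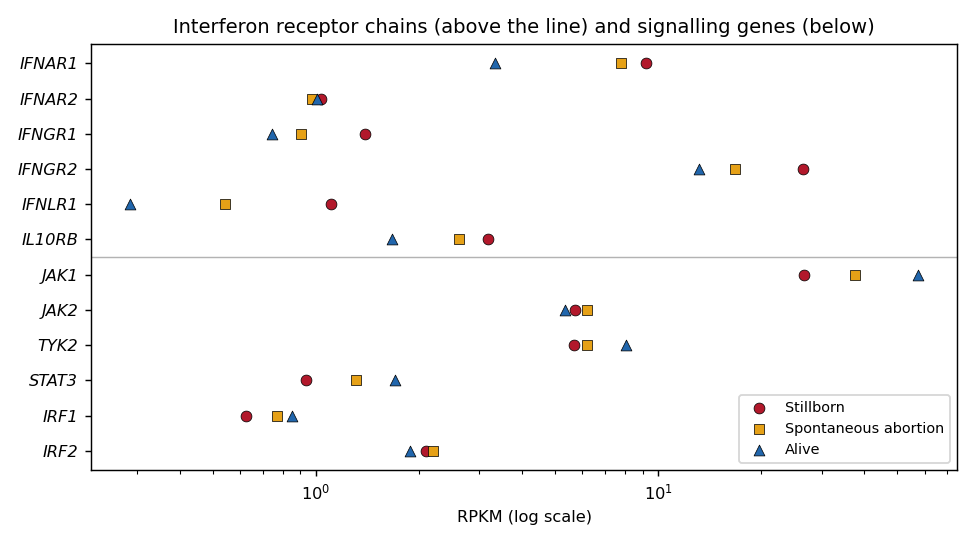
RPKM on a log axis of 6 interferon receptor chains and 6 signalling genes, with 1 point per library (stillborn, spontaneous abortion, alive). The stillborn point lies to the right of the alive point for every receptor chain, with IFNAR2 nearly level, and JAK1 runs the other way at 26.7 in stillborn fluid, 37.5 in abortion fluid and 57.4 in alive fluid.

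Further type I response genes outside the 36 were as mixed. Of 37 found in the files, 30 had enough reads in stillborn over alive. Of these, 3 were higher (PLSCR1, SLFN11 and NT5C3A) and 5 lower (IFITM1, ISG20, MOV10, BATF2 and CNP), beside 13.1% and 12.5% of all genes. In spontaneous abortion over alive, SLFN11 was higher and IFITM1 lower among 31, beside 7.68% and 5.69% of all genes. IFITM1, which blocks fusion of viral membranes, had 3.38 RPKM in stillborn fluid and 4.06 in abortion fluid, against 11.2 in alive fluid. The translation inhibitor EIF2AK2 (PKR) had 22.4 RPKM in stillborn fluid, 25.6 in abortion fluid and 28.6 in alive fluid. The median log2 ratio of the 25 genes past the RPKM filter was -0.14 in stillborn over alive and -0.12 in spontaneous abortion over alive. That of all genes past the filter was -0.01 in each.

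Among genes of the interferon gamma response, the chemokine CXCL11 was listed at 0 in every library, and CXCL9 and CXCL10 had fewer than 10 reads in each. IFI30, a lysosomal thiol reductase of antigen-presenting cells, had 32.4 RPKM in stillborn fluid and 3.43 in abortion fluid, against 3.41 in alive fluid. In stillborn over alive, 3 of 12 genes with enough reads were higher (IFI30, CD74 and TAPBP), beside 13.1% of all genes. On the low side, 1 was called (NLRC5), beside 12.5%. The 10 genes of this list past the RPKM filter had a median log2 ratio of -0.51 in stillborn over alive. It was -0.48 in spontaneous abortion over alive, beside -0.01 for all genes in each. PSME1, the most abundant of the list, had 152 RPKM in stillborn fluid and 144 in abortion fluid, against 212 in alive fluid. With assigned totals alone, 2 genes of this list were higher and 4 lower, since TAPBP dropped out and GBP2, PSMB8 and PSMB9 were added.

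Of the sensing genes, the endosomal receptor TLR7 had 0 reads in stillborn fluid, 0 in abortion fluid and 11 in alive fluid, and the DNA sensor IFI16 had 46.2 RPKM in stillborn fluid, 72.0 in abortion fluid and 69.2 in alive fluid. In the 13 with enough reads, TLR8 was higher and none was lower in stillborn over alive, beside 13.1% and 12.5% of all genes. DHX58 (LGP2), a regulator of RIG-I and MDA5, was lower and AIM2, a DNA sensor of the inflammasome, higher in spontaneous abortion over alive. Among all genes 5.69% were lower and 7.68% higher in that comparison. Of the 6 negative regulators with enough reads, only TRAFD1 was lower in stillborn over alive, beside 12.5% of all genes. It had 1.64 RPKM in stillborn fluid against 3.85 in alive fluid. The E2 enzyme of ISG15 transfer, UBE2L6, had 3.01 RPKM in stillborn fluid and 1.89 in abortion fluid, against 1.10 in alive fluid. UBA7, the other enzyme listed for ISG15 conjugation, ran the other way. It had 1.51 RPKM in stillborn fluid and 1.60 in abortion fluid, against 2.57 in alive fluid. UBA7 was 1.52-fold lower in stillborn than in alive fluid (1.27 to 1.82), short of the 2-fold limit.

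Markers of macrophages, neutrophils and squamous epithelium differed between the libraries beside these values. The 12 macrophage and monocyte markers found summed to RPKM 39.5 in stillborn fluid, 10.7 in abortion fluid and 13.9 in alive fluid, with MARCO at 0 in each. The 10 neutrophil markers summed to RPKM 23.8 in stillborn fluid, 3.68 in abortion fluid and 1.66 in alive fluid, with S100A12, MPO and ELANE at 0. The 9 squamous epithelial markers summed to RPKM 317 in stillborn fluid, 258 in abortion fluid and 210 in alive fluid. The order of these sums rests on SPRR3, a protein of the cornified envelope, at 131 RPKM in stillborn fluid, 4.63 in abortion fluid and 2.54 in alive fluid. Without SPRR3, a sum chosen after the values were seen, stillborn fluid was lowest, at RPKM 186 in stillborn fluid, 254 in abortion fluid and 207 in alive fluid. KRT5, a keratin of basal cells, was 2.75-fold lower in stillborn fluid than in alive fluid, and KRT13 and KRT4 were highest in abortion fluid. CRNN, KRT14, IVL and DSG3 each had the order of SPRR3, with CRNN at 41.3 RPKM in stillborn, 11.4 in abortion and 1.39 in alive fluid. In stillborn over alive, 5 of the 9 were higher (KRT14, TP63, SPRR3, CRNN and IVL), beside 13.1% of all genes. Only KRT5 was lower, beside 12.5%. XAF1 and TRIM22 had the same order of libraries as the neutrophil sum, the squamous sum with SPRR3, and CRNN, KRT14 and IVL. In stillborn fluid the neutrophil sum came mostly from S100A9, S100A8, MMP9 and TREM1. CSF3R had 0 reads there, CXCR2 10 and FPR1 2. The part of neutrophils or squamous cells in the result was not tested.

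Lymphoid markers were mostly absent. The T cell markers CD3D, CD3E, CD2 and CD247 were listed at 0 in every library, as were the B cell markers MS4A1, CD79B and PAX5. The 10 T and NK cell markers summed to RPKM 5.31 in stillborn fluid, 0.865 in abortion fluid and 9.21 in alive fluid. In alive fluid 8.84 of this was GNLY, a granule protein of cytotoxic lymphocytes. Without GNLY, a sum chosen after the values were seen, the list came to RPKM 3.80 in stillborn fluid, 0.609 in abortion fluid and 0.365 in alive fluid, so that alive fluid was lowest. IL7R, the interleukin-7 receptor chain, carried most of the rest, at 3.34 RPKM in stillborn fluid, 0.609 in abortion fluid and 0.301 in alive fluid. The B cell sum was RPKM 1.92 in stillborn fluid, 1.92 in abortion fluid and 1.23 in alive fluid. Of the plasmacytoid dendritic cell list, 6 of 9 genes were found, summing to RPKM 2.56 in stillborn fluid, 0.691 in abortion fluid and 10.5 in alive fluid, and PTCRA was at 0. Most of this sum came from GZMB and FLT3, which other cells also express, while LILRA4 had 10 reads in stillborn fluid, 0 in abortion fluid and 1 in alive fluid. OAS1, OAS2, IFI6 and MX1 were lowest in abortion fluid, as were the dendritic sum and the macrophage and monocyte sum. The T and NK cell sum was lowest there only with GNLY. That relation was not tested.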

How the data were processed

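Cell-free RNA of 3 amniotic fluid supernatants was sequenced on a HiSeq2500 after SPIA amplification, per the labels' protocols. Of tools, bcl2fastq 2.17, STAR and HTSeq are listed, per the submitters' processing notes. Genome build, annotation, strand setting and RPKM step: not given in the sources used here. Values as deposited by the authors are RPKM, with 1 value per gene and library.

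Totals and reads per gene were solved from the RPKM as the whole numbers that fit the printed digits. Whole reads resulted for 99.7% of the 23276 genes above 0. Reads are lower bounds, since a factor common to a gene's reads cannot be seen, and they add up to 96.0% to 96.7% of the totals. Antisense and overlapping genes cannot be separated. TMM factors (30% of M and 5% of A trimmed) were 0.937 for stillborn fluid, 1.02 for abortion fluid and 1.05 for alive fluid. Ratios took 0 reads as 3. Intervals are exact Clopper-Pearson at 95%, conditional on the sum of both reads, and cover counting error only. Medians used log2(RPKM + 0.1) and a mean RPKM of at least 1. Other scalings, folds, read limits, pseudocounts and filters were tried. The procedure was tested on simulated data. Python 3.11.15, NumPy 2.4.6 and SciPy 1.17.1 were used.

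Members, gene lists and rules were chosen with earlier results of these data known. Values are given per library for members whose mean RPKM reached 1 and for members called, and for genes of other lists that were called or among the 2 most abundant. TYK2, IFNAR2, TLR7, IFNE and IFNW1, the further genes given for their place in the pathway, and members below the filter were chosen after their values were seen. RefSeq names held all 36 members, DDX58 as RIGI, and 0 of 17250 LOC names stood for a member (6491 matched an entry). No coordinates are given because the builds may differ. No sequence is printed. A further gene of the signalling list is not reported here.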

Additional observations from a re-analysis of the deposited data

How the results depend on the processing

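No paired analysis was possible because each status has 1 sample. In stillborn over alive, members higher were 2 at 4-fold and 2 at 100 reads. Members lower were 4 with assigned totals, 7 at 1.5-fold, 1 at 4-fold and 1 at 100 reads. The median log2 ratio was -0.43 with assigned totals, where the median of all genes past the filter also moved, to -0.17. It was 0.0013 with no filter on low values. In spontaneous abortion over alive, members higher were 8 at 1.5-fold, 0 at 4-fold and 3 at 100 reads, and members lower 12 at 1.5-fold and 0 at 4-fold. The median was -0.19 with no filter. In stillborn over spontaneous abortion, members higher were 0 at 4-fold, and members lower 2 at 1.5-fold and 1 at 10 reads. Stricter limits leave fewer genes by construction. Shares of all genes at 1.5-fold and 4-fold are given above, and none were taken under other scalings or read limits. The cause of the other differences was not tested. Of 400 single-gene values under other scalings or pseudocounts, 364 stayed within their counting interval, 36 moved beyond it and 0 of the called ones changed sign. No unlisted name could be added as a member, so that alternative gave no value. Depth limited ISG15, IRF7 and USP18, which had fewer than 30 reads in every library.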
